A study of Mus musculus with 37 samples.

Results

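The question addressed here was how the effect of losing Nampt in skeletal muscle changed between 4 and 8 weeks of age. The quantity was a difference of differences. The knockout minus wild-type difference at 8 weeks was set against the same difference at 4 weeks, with the sequencing pool as a covariate. The contrast set 22 of the 37 gastrocnemius libraries of the series against each other, 1 per numbered animal, and all 37 shared 1 estimate of the spread and of the pool effect. They were 6 wild-type (WT) and 5 knockout (SMNKO) animals at 4 weeks, and 5 WT and 6 SMNKO animals at 8 weeks. SMNKO mice carry a Nampt knockout restricted to skeletal muscle. The Cre driver, the floxed allele and the strain are not given in the sources used here, and the WT label does not say whether these animals carry either allele. Of the 4-week animals, 3 of 6 WT and 4 of 5 SMNKO were labelled male. At 8 weeks 4 of 5 WT and 6 of 6 SMNKO were labelled male. Among 16728 genes tested, 47 had an effect that reversed sign, 129 had an effect that faded and 156 had an effect of unchanged sign that grew. A fit of only the 22 libraries gave 6, 27 and 31, with 213 genes called at 4 weeks against 946.

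Nampt makes nicotinamide mononucleotide from nicotinamide, the rate-limiting step by which most tissues recycle NAD. NAD carries electrons from glycolysis, fatty acid oxidation and the tricarboxylic acid cycle to the respiratory chain, and it is consumed by sirtuins and PARPs. The nicotinamide riboside kinases Nmrk1 and Nmrk2 phosphorylate nicotinamide riboside and form a second route to the same product. Between the ages compared here, mice grow from juveniles to young adults and their muscles gain mass.

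Total counts ran from 10795778 to 23134727 in 4-week WT, from 6668855 to 20997634 in 4-week SMNKO, from 5192700 to 20122887 in 8-week WT and from 13422624 to 20760973 in 8-week SMNKO libraries. Levels are CPM, counts scaled to a common library size with TMM factors, and effects are log2 fold changes with their standard error (SE). Genes for nuclear ribosomal RNA held over 5% of counts in 5 of the 22 libraries: WT animals 3 and 4 and SMNKO animal 8 at 4 weeks, and WT animals 34 and 35 at 8 weeks. In 3 libraries the sex-linked genes did not match the label. SMNKO animals 12 and 42, labelled male, had the female transcript Xist at 63.8 and 199 CPM. Their Y-linked Ddx3y was at 0.064 and 0.253 CPM. WT animal 4, labelled female, had Xist at 45.1 CPM and also Ddx3y at 8.00 CPM. Fits of labelled males alone still include animals 12 and 42. The fibre transcripts Myh4, Acta1 and Ckm were abundant in every library. Myh4, the fast IIb myosin, was at 6596 CPM in 8-week WT animal 36, against 49569 to 63935 CPM in the other 8-week WT animals. P-values rest on the spread between animals of a group, estimated from all 37 libraries with information shared between genes. In whole muscle, fewer cells of a type and less RNA per cell cannot be told apart.

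The knockout effect differed between the ages for 4576 genes (27.4% of genes tested) at an adjusted p below 0.05 (edgeR quasi-likelihood test, Benjamini-Hochberg). It moved upward in 2266 of them (13.5%) and downward in 2310 (13.8%), so neither direction prevailed. With library sizes in place of TMM factors, 7393 genes were called and 97.1% of them moved upward, and the median gene then moved by 0.77 on the log2 scale against 0.00 with TMM. Directions below are therefore relative to the bulk of genes. At 4 weeks 946 genes were called (5.66%), 412 higher (2.46%) and 534 lower (3.19%) in SMNKO, and at 8 weeks 8790 were called (52.5%), 4385 higher (26.2%) and 4405 lower (26.3%).

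Each called gene was sorted by its effects at both ages. A reversed gene was called at both ages with opposite signs. A faded gene was called at 4 weeks and was then either not called at 8 weeks or called with the same sign and a smaller effect. A grown gene was called at both ages with the same sign and a larger effect at 8 weeks, and an emerged gene was called at 8 weeks alone. Of the 946 genes called at 4 weeks, 4.97% reversed, 13.6% faded, 16.5% grew and 64.9% had no call for a change. The 412 genes higher at 4 weeks held 22 reversed, 70 faded and 38 grown genes. The 534 lower at 4 weeks held 25 reversed, 59 faded and 118 grown genes. Emerged genes numbered 4048 (24.2% of genes tested). The reversed, faded and grown classes were 0.281%, 0.771% and 0.933% of genes tested. The remaining 196 were called for the change and at neither age. The scatter of effects at 4 against 8 weeks shows the reversed genes in the upper left and lower right quadrants.

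**Figure D1:**
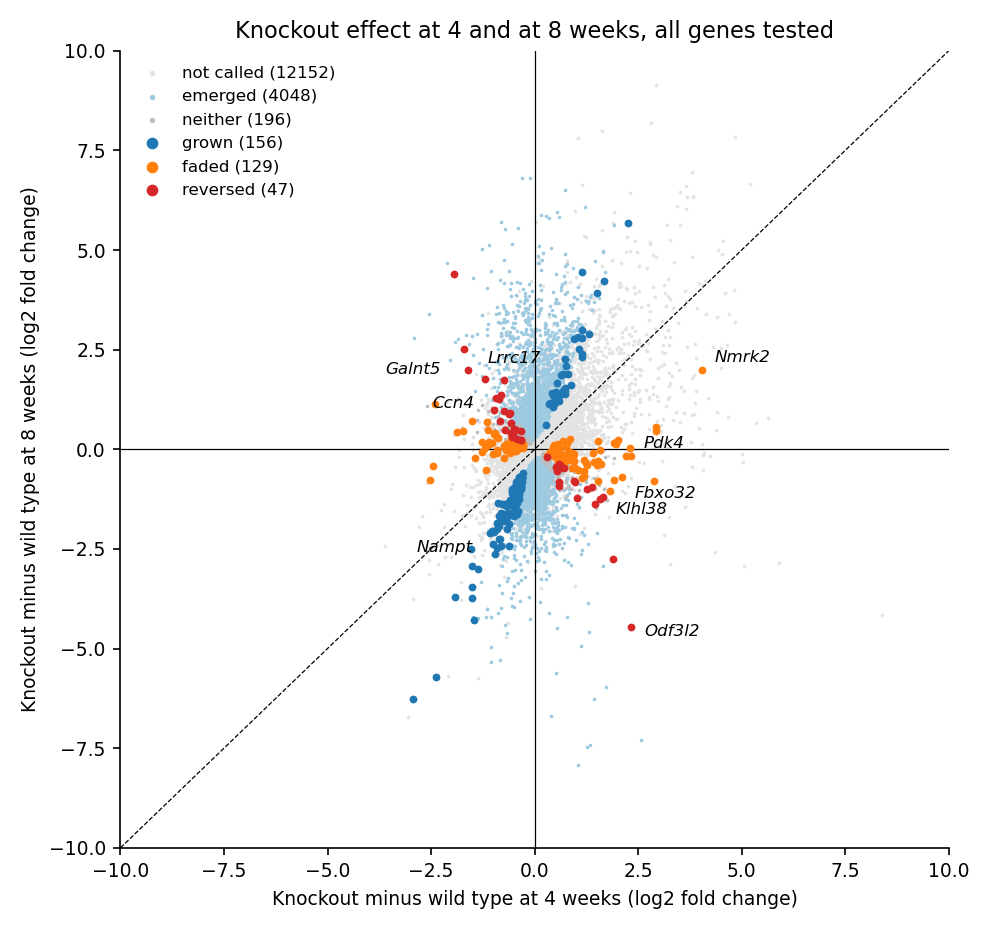
Each point is 1 of 16728 genes, with its log2 fold change of SMNKO over WT at 4 weeks on the x axis and at 8 weeks on the y axis, coloured by class, and the dashed line marks equal effects. The 47 reversed genes lie in the quadrants of opposite sign, and of the 129 faded genes Nmrk2, at 4.03 and 1.98, lies well above the horizontal axis.

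The class counts rest on the 4-week calls and so on the 5 SMNKO animals of that age. Without SMNKO animal 7 the counts were 2 reversed and 25 faded genes, and without animal 10 they were 82 and 195. The 46 reversed genes then still tested without animal 7 all kept their call for the change and their opposite signs. The same libraries chose these genes, so the signs and calls kept in this paragraph are a description. Without the 5 rRNA-rich libraries 28 reversed and 69 faded genes were found, and all 47 reversed genes kept opposite signs and their call for the change. The reversed class was kept by 14 of the 22 that went from higher to lower and by 6 of the 25 others. The faded class was kept by 26 of 70 genes higher and 23 of 59 lower at 4 weeks. Among labelled males alone 0 reversed and 6 faded genes were found, with 17 genes called at 4 weeks, while 46 of the 47 reversed genes kept their call for the change. On library sizes alone 5 reversed and 21 faded genes were found. Opposite signs were kept by 11 of the 22 genes that reversed downward and by all 25 that reversed upward. The reversed class was kept by 0 of these 22 and 1 of these 25. The faded class was kept by 4 of 70 genes higher and 4 of 59 lower at 4 weeks.

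Nampt itself was lower in SMNKO at both ages, and the gap widened while its level rose with age in WT muscle. In 4-week WT animals its lowest, median and highest levels were 105, 123 and 156 CPM. The 5 SMNKO animals of that age had 76.2, 55.1, 64.4, 55.2 and 63.2 CPM. The WT animals had at 8 weeks 220, 170, 182, 213 and 236 CPM, and SMNKO ran from 46.5 through a median of 48.5 to 56.0 CPM. The groups did not overlap at either age. The effect was -1.03 (SE 0.11) at 4 weeks and -2.04 (SE 0.11) at 8 weeks, a change of -1.02 (SE 0.15, edgeR adjusted p = 9.61e-06). On library sizes alone the change was -0.22 and was not called.

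Nmrk2, the muscle-enriched nicotinamide riboside kinase, had the largest 4-week effect among the named faded genes, and it faded through a rise in WT rather than a fall in SMNKO. At 4 weeks WT ran from 11.9 through a median of 20.1 to 43.5 CPM, and the SMNKO animals had 329, 607, 265, 136 and 554 CPM. In 8-week WT animals the levels were 207, 71.2, 40.8, 140 and 154 CPM, and SMNKO ran from 345 through 493 to 601 CPM. SMNKO lay above every WT animal at both ages. The effect was 4.03 (SE 0.44, adjusted p = 1.7e-06) at 4 weeks and 1.98 (SE 0.42, adjusted p = 0.000279) at 8 weeks. The change was -2.05 (SE 0.57, adjusted p = 0.00865). WT rose with age by 2.41 (adjusted p = 0.00025), whereas SMNKO moved by 0.36 (adjusted p = 0.484). At 2 weeks the effect was 1.83 and at 6 weeks 1.76. Within pool A alone the change was -2.66 (adjusted p = 0.0665) and within pool B alone -1.57 (adjusted p = 0.204), and neither was called, nor was -1.13 on library sizes alone. Of 15 measured NAD synthesis and salvage genes, 6 moved upward and 0 downward between the ages on library sizes alone. With TMM factors 2 moved upward and 5 downward, against 13.5% and 13.8% of all genes tested. The 5 downward ones included Nampt, the deleted gene, and Nmrk2, so this count is not free of the genes already described. They also included Nadk2, the mitochondrial NAD kinase, at -1.06, and Nmnat1, the nuclear adenylyltransferase that makes NAD, at -0.54. Nnmt, which methylates nicotinamide, moved upward by 1.36.

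Promoter sequence is shown for 3 members that moved in opposite ways, Nmrk2 and Ankrd2, which faded from a rise, and Lrrc17, which reversed from a fall. Each run is the 250 bases before the RefSeq start of the gene, 5′ to 3′ on its strand, on GRCm38.p6. The GENCODE gene positions given for members can start at other bases than the RefSeq entries. Capitals mark the letters TATAAA, the consensus of a TATA box, wherever they stand in the window. All 3 windows shown hold these letters. The windows of Pdk4, Sap30 and Galnt5, also searched and not shown, do not. The windows are chr10:81202038-81202287 (minus strand) for Nmrk2, chr19:42035777-42036026 (plus strand) for Ankrd2 and chr5:21543277-21543526 (plus strand) for Lrrc17.
Nmrk2: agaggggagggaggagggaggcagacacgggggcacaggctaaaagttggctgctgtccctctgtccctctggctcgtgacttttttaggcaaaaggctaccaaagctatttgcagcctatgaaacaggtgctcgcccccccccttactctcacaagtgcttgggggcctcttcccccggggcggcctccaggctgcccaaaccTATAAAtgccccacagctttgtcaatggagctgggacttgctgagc
Ankrd2: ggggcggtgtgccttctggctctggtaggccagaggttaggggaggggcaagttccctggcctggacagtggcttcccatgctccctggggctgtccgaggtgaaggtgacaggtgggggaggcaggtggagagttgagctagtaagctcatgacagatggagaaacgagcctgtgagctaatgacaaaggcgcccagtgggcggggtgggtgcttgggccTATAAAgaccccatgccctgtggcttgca
Lrrc17: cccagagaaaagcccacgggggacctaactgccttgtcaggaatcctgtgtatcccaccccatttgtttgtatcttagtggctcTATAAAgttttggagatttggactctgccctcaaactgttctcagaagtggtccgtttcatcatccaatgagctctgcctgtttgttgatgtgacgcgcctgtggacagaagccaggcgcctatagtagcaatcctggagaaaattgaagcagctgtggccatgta

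Of the 176 reversed and faded genes, 133 had a promoter entry, 65 higher and 68 lower at 4 weeks. Both strands were searched. TATAAA stood in 9 of the 65 and 8 of the 68, which is 13.8% and 11.8%, against 8.66% of 11739 tested genes with an entry and 14.3% of all 27025. GTAAACA, the site of FOXO factors, stood in 4 of the 65 (6.15%) and 2 of the 68 (2.94%), against 2.82% of tested genes. ACANNNTGT, the core of a glucocorticoid receptor site, stood in 3 and 3 of them, which is 4.62% and 4.41%, against 4.84%. These are counts of letters in a window and were not tested.

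The faded genes that had been higher at 4 weeks included genes that muscle raises on fasting or disuse. Fbxo32 (chr15, 58175879 to 58214932, minus strand) encodes atrogin-1, an F-box subunit of the ubiquitin ligase that marks muscle protein for degradation. In 4-week WT it ran from 38.7 through 63.9 to 102 CPM, and the SMNKO animals had 1044, 160, 44.8, 81.1 and 196 CPM. Animal 7 stood far above the others, and animals 10 and 11 lay within the WT range. At 8 weeks the WT animals had 278, 251, 409, 348 and 305 CPM, and SMNKO ran from 132 through 182 to 310 CPM. The effect was 2.11 (SE 0.48, adjusted p = 0.00895) at 4 weeks and -0.69 (SE 0.46, adjusted p = 0.209) at 8 weeks, a change of -2.81 (SE 0.66, adjusted p = 0.00222). WT rose with age by 2.21 (adjusted p = 0.00182). Without animal 7 the change was -1.43 and was still called. Within pool A alone it was -4.11 (adjusted p = 0.0111) and within pool B alone -1.02 (adjusted p = 0.295).

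Pdk4 (chr6, 5483351 to 5496309, minus strand) encodes the kinase that shuts off pyruvate dehydrogenase and so spares glucose. In 4-week WT it ran from 70.2 through 163 to 498 CPM, and the SMNKO animals had 1734, 1342, 215, 219 and 1432 CPM. SMNKO animals 7, 8 and 12 lay above every WT animal, and animals 10 and 11 did not. The WT animals had at 8 weeks 483, 280, 1020, 767 and 505 CPM, and SMNKO ran from 400 through 502 to 748 CPM, inside the WT range. The effect was 2.32 (SE 0.49, adjusted p = 0.0058) at 4 weeks and -0.18 (SE 0.48, adjusted p = 0.784) at 8 weeks, a change of -2.50 (SE 0.68, adjusted p = 0.00668). Within pool A alone the change was -2.69 (adjusted p = 0.0155), within pool B alone -2.05 (adjusted p = 0.221) and on library sizes alone -1.68 (adjusted p = 0.0801).

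Gabrr2, a GABA receptor subunit, fell with age in both genotypes. Its SMNKO animals had 20.9, 14.7, 7.44, 16.8 and 13.5 CPM at 4 weeks, above the WT highest of 7.17 CPM, and at 8 weeks every library of either genotype was below 1 CPM. Its change was -2.34 (SE 0.48, adjusted p = 0.000488).

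**Figure D2:**
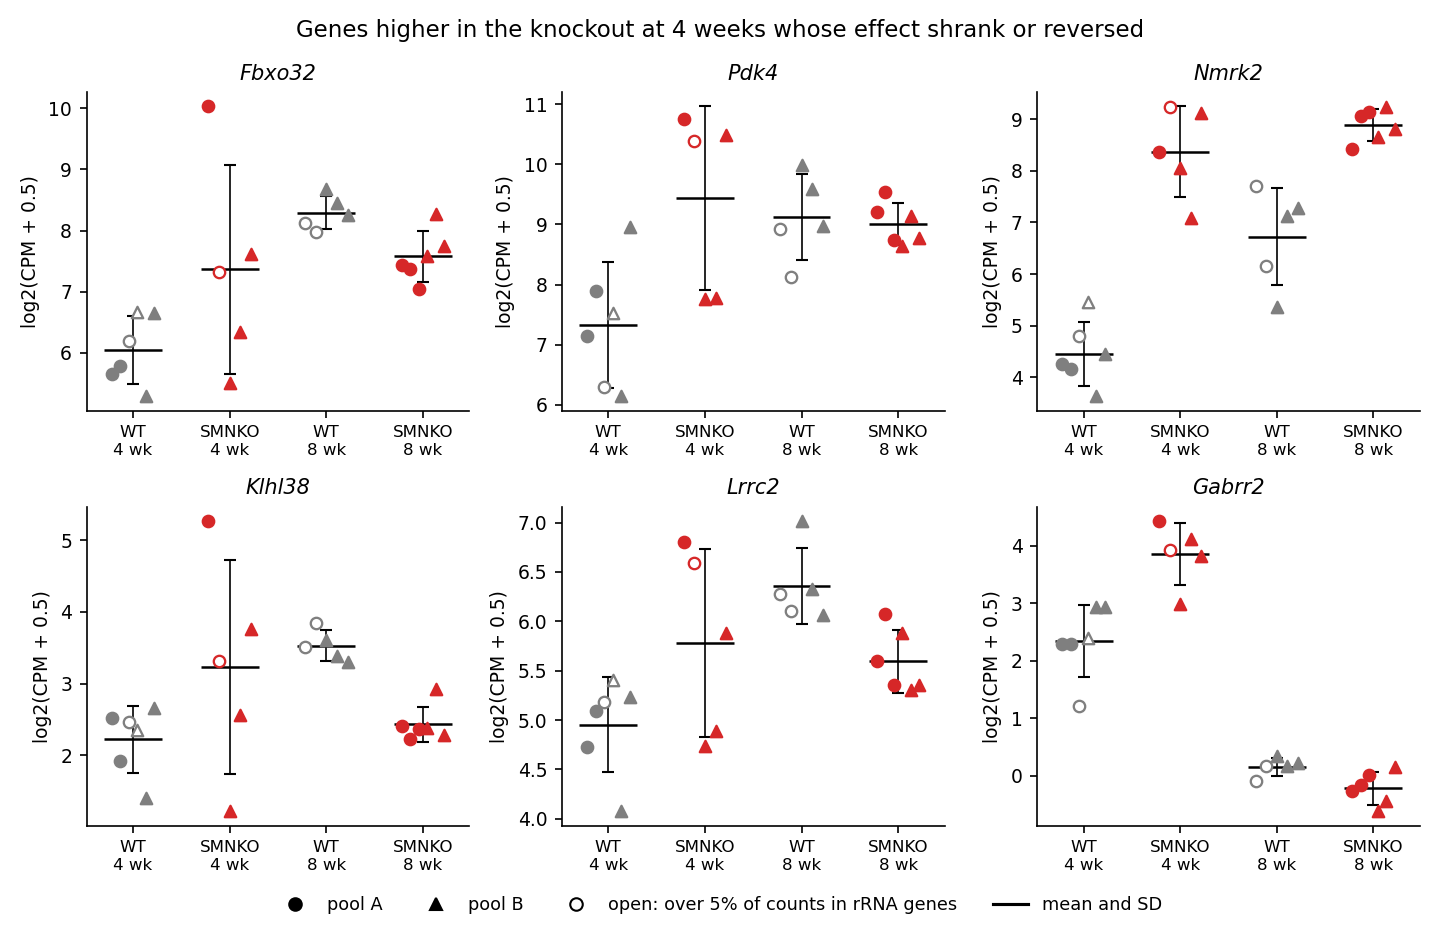
Each panel gives log2(CPM + 0.5) of 1 gene in the 22 libraries by group, with the mean and SD as black bars, circles for pool A, triangles for pool B and open symbols for libraries with over 5% of counts in rRNA genes. In Fbxo32, Pdk4, Nmrk2 and Lrrc2 the WT mean is higher at 8 than at 4 weeks, with overlapping WT libraries in Pdk4 and Nmrk2, and the 4-week SMNKO libraries spread more widely than the 8-week ones, while Gabrr2 falls in both genotypes.

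The 4-week rise of these genes was uneven across the SMNKO animals. Of the 92 reversed or faded genes that were higher at 4 weeks, animal 7 exceeded every WT library in 92, animal 12 in 90, animal 8 in 74, animal 11 in 52 and animal 10 in 46. These values helped to choose the genes and are given as a description. Animals 7 and 8 were the pool A libraries, and animals 10, 11 and 12 were pool B. Within pool B alone 9 genes were called at 4 weeks, and 0 faded and 1 reversed gene were found. That reversed gene was not one of those found with all libraries. The change itself had the same sign in pool B alone in all 22 reversed and all 70 faded genes that were higher at 4 weeks. Pool B libraries also helped to choose these genes, so this too is a description. Animal 7 also held B-cell transcripts, with Ms4a1 at 10.04 CPM, against at most 0.172 CPM in the other SMNKO libraries of that age. Lymphocyte markers summed to 138 CPM at most in 4-week SMNKO and 27.0 CPM at most in 4-week WT. Animal 8 held 29.3% of its counts in rRNA genes. The part of either in these results was not tested.

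Other named faded genes with a 4-week rise were Depp1, a FOXO-induced gene, Lvrn, an aminopeptidase, and Ankrd2, a stretch-responsive protein of the sarcomere. Depp1 stood at 159, 7.17, 10.6, 6.49 and 33.3 CPM in the SMNKO animals and between 5.39 and 13.4 CPM in WT. Its change was -2.38 (adjusted p = 0.0359), and without animal 7 it was -0.67 (adjusted p = 0.477). The call was also lost in 8 of 13 settings other than leaving out 1 library, and without WT animal 5, 36, 37 or 38 or SMNKO animal 39 or 40, at values between -2.43 and -2.19. Ankrd2 stood at 746, 958, 137, 96.4 and 323 CPM in SMNKO and between 76.6 and 143 CPM in WT at 4 weeks. Its change was -1.83 (adjusted p = 0.0313), and the call was lost without SMNKO animal 7, 8 or 44 or WT animal 36 and in 9 of 13 other settings, both pools alone among them (highest adjusted p = 0.222). WT animal 36 had 436 CPM of Ankrd2 against at most 135 CPM in the other 8-week WT animals. Lvrn changed by -1.85 (SE 0.47, adjusted p = 0.00384). Its call was lost in 4 of 13 settings: library sizes alone, pool A alone, pool B alone and labelled males alone.

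Among 29 tested genes of a glucocorticoid and fasting response list, 9 were higher and 0 were lower at 4 weeks. Over all genes tested 2.46% were higher and 3.19% lower. The list median was 0.53 against 0.00 over all genes. At 8 weeks 5 were higher and 9 lower, where 26.2% and 26.3% of all genes tested were, and the list median was -0.18. Between the ages 0 moved upward and 9 downward, against 13.5% and 13.8% of all genes tested (list median -0.60). On library sizes alone the list median was 0.16, where the median of all genes was 0.77. The 4 faded members were Fbxo32, Pdk4, Fkbp5 and Zbtb16. Fkbp5, a chaperone of the glucocorticoid receptor and a classic target of it, stood at 97.5, 50.2, 14.4, 16.4 and 24.5 CPM in the 4-week SMNKO animals and between 12.8 and 18.3 CPM in WT. Animals 7, 8 and 12 were again above every WT animal. Its effect went from 1.44 (SE 0.31) to -0.32 (SE 0.31), a change of -1.75 (SE 0.43, adjusted p = 0.00316).

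The other 5 downward members had no call at 4 weeks and were lower at 8 weeks, so they count as emerged. Klf15, a glucocorticoid-induced transcription factor, changed by -2.15 (SE 0.33, adjusted p = 2.09e-05). It ran from 17.8 to 40.004 CPM in 4-week WT and from 26.5 to 37.7 CPM in 8-week WT, and SMNKO fell to between 6.07 and 12.2 CPM at 8 weeks. Trim63, the MuRF1 ubiquitin ligase, changed by -1.49 (SE 0.34, adjusted p = 0.00177), from 0.77 (adjusted p = 0.0548) at 4 weeks to -0.72 at 8 weeks. The list also holds genes that stayed high. The metallothioneins Mt1 and Mt2 were 2.75 and 3.27 at 4 weeks and 3.61 and 5.25 at 8 weeks, and Cdkn1a, a cell cycle inhibitor, was 1.49 and 2.24. These 3 had no call for a change. Of 28 atrophy and ubiquitin ligase genes, 1 moved upward and 12 downward, against 13.5% and 13.8% of all genes tested. Only Fbxo32 among the 28 was a faded gene. On library sizes alone 9 moved upward and 2 downward.

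The lists of glycolysis and glycogen (25 genes), fatty acid uptake and oxidation (36) and lipid and sterol synthesis (26) held 1 faded gene each. Some faded genes are described next, picked after their values were seen. Hk2, the muscle hexokinase, went from 0.87 (SE 0.19) to -0.26 (SE 0.19). Its SMNKO animals had 455, 869, 289, 222 and 449 CPM at 4 weeks against 175 to 270 CPM in WT. Lpin1, a phosphatidate phosphatase, went from 0.69 to -0.32, Txnip, an inhibitor of glucose uptake, from 0.72 to -0.32, and Plin4, a lipid droplet coat protein, from 0.74 to -0.25. WT rose with age in Hk2 by 0.73, in Lpin1 by 0.63 and in Txnip by 0.79, each called. Plin4 in WT moved by -0.08 (adjusted p = 0.818), and SMNKO fell by 1.07. Ppif, cyclophilin D, a component of the mitochondrial permeability pore, was among the few faded genes still called at 8 weeks, with effects of 0.86 (SE 0.10) and 0.25 (SE 0.11). Its SMNKO animals had 44.7, 54.4, 39.1, 39.03 and 61.4 CPM at 4 weeks, above the WT highest of 29.4 CPM.

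The 22 genes that reversed from higher to lower had a median effect of 0.68 at 4 weeks and -0.82 at 8 weeks. Odf3l2, a sperm tail protein relative of unknown role in muscle, changed most among the named ones. In 4-week WT it ran from 0.637 through 1.90 to 4.36 CPM, and the SMNKO animals had 16.02, 5.54, 6.24, 4.64 and 11.3 CPM, all above WT. At 8 weeks the WT animals had 9.99, 2.46, 1.93, 13.2 and 26.7 CPM, and SMNKO ran from 0.091 through 0.361 to 1.25 CPM, all below WT. The effect was 2.34 (SE 0.63, adjusted p = 0.0251) and then -4.46 (SE 0.72, adjusted p = 7.25e-06), a change of -6.80 (SE 0.95, adjusted p = 9.55e-06). Within pool A alone the change was -6.78 and within pool B alone -6.68. It kept its call in every alternative tried.

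Prodh, proline dehydrogenase, which feeds electrons from proline into the respiratory chain, stood at 18.0, 4.56, 6.98, 7.71 and 9.35 CPM in 4-week SMNKO and between 2.55 and 6.13 CPM in WT. The WT animals had at 8 weeks 4.34, 4.62, 8.38, 5.35 and 8.42 CPM, and SMNKO ran from 2.13 to 3.23 CPM, below every WT animal. Its change was -2.25 (SE 0.36, adjusted p = 2.89e-05), and the WT age change was 0.43 (adjusted p = 0.28), so the SMNKO fall of 1.82 carried most of it. Klhl38, a muscle kelch protein that lies near Fbxo32 on chromosome 15 (58314573 to 58324169, minus strand), stood at 37.9, 9.46, 1.83, 5.42 and 13.1 CPM in 4-week SMNKO and between 2.16 and 5.82 CPM in WT. At 8 weeks every SMNKO animal, from 4.17 to 7.06 CPM, was below every WT animal, from 9.34 to 13.9 CPM. Its change was -2.86 (SE 0.56, adjusted p = 0.000384), and -1.69 (adjusted p = 0.113) within pool B alone.

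Lrrc2, a mitochondria-associated leucine-rich repeat protein, had 111, 96.2, 26.1, 29.2 and 58.7 CPM in 4-week SMNKO and 16.4 to 41.9 CPM in WT, with animals 10 and 11 inside the WT range. Its change was -1.81 (SE 0.40, adjusted p = 0.00124), not called on library sizes alone (-1.06) or within pool B alone (-1.29). Pde4d, a cyclic AMP phosphodiesterase, had 235, 208, 135, 121 and 206 CPM in 4-week SMNKO and 107 to 141 CPM in WT. At 8 weeks its SMNKO animals ran from 70.0 to 120 CPM, below every WT animal, which had 148 to 195 CPM. Its change was -1.42 (SE 0.19, adjusted p = 3.68e-06), and on library sizes alone -0.58 (adjusted p = 0.0713). Mfsd4b1, a transporter of the major facilitator family, changed by -1.77 (SE 0.35, adjusted p = 0.00035). Pnpla2, the adipose triglyceride lipase, also reversed, from 0.60 (SE 0.17) to -0.45 (SE 0.18). It was chosen after its values were seen.

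The 25 genes that reversed from lower to higher had a median effect of -0.62 at 4 weeks and 0.70 at 8 weeks. Their median log2 difference from the 4-week WT mean was -0.93 in animal 7, -0.67 in animal 8 and between -0.49 and -0.41 in animals 10, 11 and 12. Without animal 7, 0 of the 25 were called at 4 weeks, while all 25 kept their sign. The values in this paragraph helped to choose the genes and are given as a description. Of the 84 reversed or faded genes that were lower at 4 weeks, animal 7 lay below every WT library in 79, animal 8 in 68, animal 10 in 59, animal 11 in 63 and animal 12 in 72. At 8 weeks each SMNKO animal lay above every WT animal in 14 to 24 of the 25 reversed genes. Of all 47 reversed genes, 11 had no overlap of genotypes at 4 weeks and 16 at 8 weeks, where 1.03% and 1.77% of all genes had none at 4 weeks (higher and lower in SMNKO), and 13.5% and 10.7% at 8 weeks.

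Lrrc17 (chr5, 21543559 to 21575904, plus strand), a secreted leucine-rich repeat protein, was low in all 5 SMNKO animals at 4 weeks, with 6.81, 6.19, 6.18, 7.63 and 7.22 CPM against 8.97 through 11.3 to 16.5 CPM in WT. In 8-week WT animals the levels were 6.08, 4.31, 3.05, 4.28 and 5.92 CPM, and SMNKO ran from 7.08 through 14.7 to 30.6 CPM. The genotypes did not overlap at either age and changed places. The effect was -0.74 (SE 0.22, adjusted p = 0.0411) and then 1.74 (SE 0.24, adjusted p = 3.38e-07), a change of 2.49 (SE 0.33, adjusted p = 2.69e-06). WT fell by 1.31 and SMNKO rose by 1.17 with age, both called. Within pool A alone the change was 2.94 and within pool B alone 2.12, both called.

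Sap30, a subunit of the Sin3 histone deacetylase complex, fell with age in WT and held its level in SMNKO. At 4 weeks WT ran from 9.09 through 11.8 to 13.2 CPM and the SMNKO animals had 5.34, 6.19, 8.70, 9.06 and 5.16 CPM. At 8 weeks the WT animals had 3.91, 4.00, 3.61, 4.96 and 4.41 CPM, and SMNKO ran from 5.86 through 8.92 to 9.32 CPM. Neither age had an overlap. The change was 1.69 (SE 0.26, adjusted p = 2.09e-05), with a WT fall of 1.43 and a SMNKO age change of 0.26 (adjusted p = 0.229).

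Galnt5, a glycosyltransferase that starts mucin-type O-glycans, showed the opposite split. Its SMNKO animals had 0.343, 0.652, 0.973, 1.07 and 0.902 CPM at 4 weeks, below the WT lowest of 1.67 CPM, and 3.54 through 7.57 to 13.2 CPM at 8 weeks. The WT animals of 8 weeks had 4.34, 3.70, 2.69, 1.13 and 0.658 CPM, overlapping SMNKO. Its effect went from -1.60 (SE 0.46) to 2.00 (SE 0.40), a change of 3.60 (SE 0.61, adjusted p = 7.73e-05), and SMNKO rose by 3.30 with age. Ccn4, a matricellular protein induced by Wnt signalling, changed by 2.10 (SE 0.36), Rtl3, a retrotransposon-derived gene, by 2.18 (SE 0.34), and Bex1, which is raised in regenerating muscle, by 1.96 (SE 0.37). All 3 were called in the change. Ccn4 was lowest in animal 7, at 3.33 CPM against 8.19 to 11.3 CPM in the other SMNKO animals. Bex1 was at 10.4 CPM in animal 8, inside the WT range of 5.82 to 13.7 CPM, and between 2.78 and 4.36 CPM in the other 4.

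**Figure D3:**
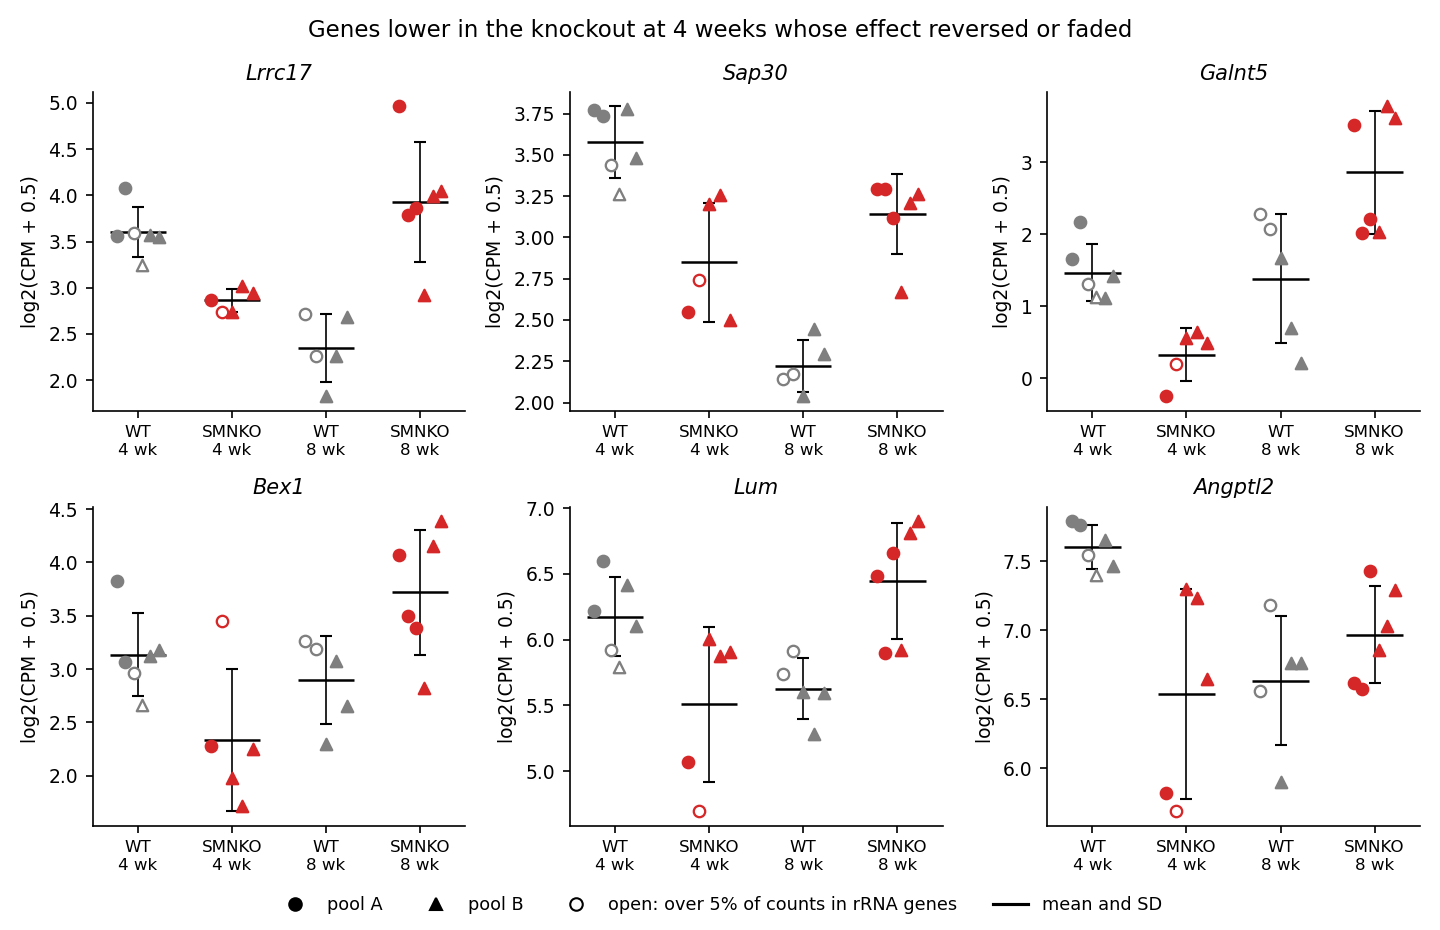
Each panel gives log2(CPM + 0.5) of 1 gene in the 22 libraries by group, with the mean and SD as black bars, circles for pool A, triangles for pool B and open symbols for libraries with over 5% of counts in rRNA genes. Lrrc17 and Sap30 change places without overlap, and in Angptl2 the 8-week groups overlap.

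Some connective tissue genes moved in this direction. Of 15 fibroblast and progenitor markers, 0 were higher and 5 lower in SMNKO at 4 weeks (list median -0.42). Over all genes tested 2.46% were higher and 3.19% lower. At 8 weeks 4 were higher and 2 lower (list median 0.14), against 26.2% and 26.3% of all genes tested. The 8-week count of higher markers was thus near the share over all genes. Between the ages 5 moved upward and 0 downward, against 13.5% and 13.8% of all genes tested. Lum, the collagen-binding proteoglycan lumican, and Dpt, dermatopontin, reversed. Lum stood at 33.0, 25.4, 63.7, 58.2 and 59.4 CPM in 4-week SMNKO and 55.0 through 71.0 to 96.4 CPM in WT, with animals 7 and 8 lowest. At 8 weeks SMNKO ran from 59.3 through 94.8 to 119 CPM, and the WT animals had 53.01, 59.8, 48.1, 38.5 and 47.7 CPM. Its change was 1.51 (SE 0.27, adjusted p = 0.000124), and that of Dpt was 1.24 (SE 0.23, adjusted p = 0.000219). Cd55, a complement regulator, and Thy1, a surface glycoprotein, faded. Cd55 was lower in all 5 SMNKO animals at 4 weeks, with 16.8, 9.78, 17.3, 16.8 and 17.9 CPM against 36.5 to 62.2 CPM in WT. Its effect went from -1.43 (SE 0.23) to -0.23 (SE 0.22). The summed level of the markers ran from 1900 to 2470 CPM in 4-week WT, 1010 to 1860 CPM in 4-week SMNKO, 2260 to 3060 CPM in 8-week WT and 1290 to 2300 CPM in 8-week SMNKO. The sum therefore did not reverse, and Dcn, a member, was -0.83 at 8 weeks. The part of a change in cell number in these genes was not tested.

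Of 33 extracellular matrix genes, 1 was higher and 1 lower at 4 weeks (list median -0.29), and 20 were higher and 2 lower at 8 weeks (list median 0.89). Between the ages 19 moved upward and 1 downward, against 13.5% and 13.8% of all genes tested. Most of the 19 were emerged genes, with Lum the only reversed one. Col3a1, fibrillar collagen III, went from -0.35 (adjusted p = 0.328) to 1.71, and its WT level fell by 1.51 with age. Postn, periostin, went from 0.11 to 3.43, a change of 3.32 (SE 0.56). Fmod, fibromodulin, was the downward exception at -0.96.

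The faded genes that had been lower at 4 weeks numbered 59, with a median effect of -0.64 at 4 weeks and 0.07 at 8 weeks. Angptl2, a secreted angiopoietin-like protein, stood at 56.0, 51.2, 157, 150 and 99.6 CPM in 4-week SMNKO and 168 through 194 to 220 CPM in WT. All 5 animals were below WT, and animals 7 and 8 were lowest. The WT animals had at 8 weeks 93.9, 144, 59.3, 108 and 108 CPM, and SMNKO ran from 95.1 through 123 to 172 CPM. Its change was 1.26 (SE 0.30, adjusted p = 0.00234), of which WT contributed a fall of 0.94. Pak1, a Rac- and Cdc42-activated kinase, changed by 1.84 (SE 0.42, adjusted p = 0.00165) and Adamts20, a secreted protease, by 1.35 (SE 0.34, adjusted p = 0.00352). In both the WT level fell with age, by 1.26 and 1.84.

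Sema3a, a repulsive axon guidance ligand, had 3.38, 2.61, 4.92, 6.92 and 3.87 CPM in 4-week SMNKO, below every WT animal at 7.54 to 13.2 CPM, and an effect of 0.04 (SE 0.22) at 8 weeks. Its change was 1.25 (SE 0.31, adjusted p = 0.00276). Ptprs, a receptor tyrosine phosphatase, depended on pool in 4-week WT, with 228, 219 and 273 CPM in pool A and 94.9, 76.1 and 55.7 CPM in pool B. Its change was 2.30 within pool A alone and 0.80 within pool B alone (adjusted p = 0.0469). Arpp21, a cyclic AMP-regulated phosphoprotein, changed by 1.28 and Frem1, a basement membrane protein, by 1.36. Clec11a, a growth factor of the lectin family, changed by 1.22 (adjusted p = 0.0384), and its call was lost when any of 9 libraries was left out, 4-week SMNKO animals 7 and 8 among them, and in 7 of 13 other settings.

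A fading or reversing effect could come from either genotype. Of the 70 faded genes higher at 4 weeks, WT alone had a called age change in 31, SMNKO alone in 29, both in 3 and neither in 7. Among the 59 lower at 4 weeks the counts were 22, 27, 4 and 6. Over all 16728 genes tested the like counts were 1342, 6224, 1233 and 7929. Counting genes called in both, 15.4% had a called age change in WT (7.8% upward and 7.59% downward). In SMNKO 44.6% had one (23.1% upward and 21.5% downward). Of the 22 genes that reversed from higher to lower, 8 had both genotypes called in opposite directions, and among the 25 that reversed from lower to higher this held for 11. Over all 16728 genes tested, both genotypes were called in opposite directions in 426. The change equals the SMNKO age change minus the WT age change. The choice of reversed genes therefore favours opposite moves, and these counts are a description.

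The contrasts that sorted the genes did not use the 2- and 6-week groups. Libraries of those ages did enter the shared fit, with its filter, spread and pool effect. Their signs are therefore not fully independent of the sorting. At 2 weeks, where 10 genes were called (0.0598%; 0.0359% higher and 0.0239% lower), the effect had the 4-week sign in 44 of 47 reversed genes (93.6%) and 111 of 129 faded genes (86.0%). Among all genes called at 4 weeks the share was 83.5% and among all genes tested it was 62.0%. The 2-week medians were small, between -0.23 and 0.15 for the 4 groups of reversed and faded genes. At 6 weeks, with 2 WT and 2 SMNKO animals and 1617 genes called (9.67%; 5.33% higher and 4.34% lower), the reversed genes had the 8-week sign in 31 of 47 (66.0%) and the 4-week sign in 16. The 22 that reversed from higher to lower had a 6-week median of -0.16, and the 25 others a median of 0.18. Faded genes had a 6-week median of 0.05 where they had been higher and -0.18 where they had been lower. The 38 grown genes that rose had medians of 0.02, 0.72, 1.03 and 1.58 over the 4 ages, and the 118 that fell had -0.14, -0.50, -0.70 and -1.26.

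**Figure D4:**
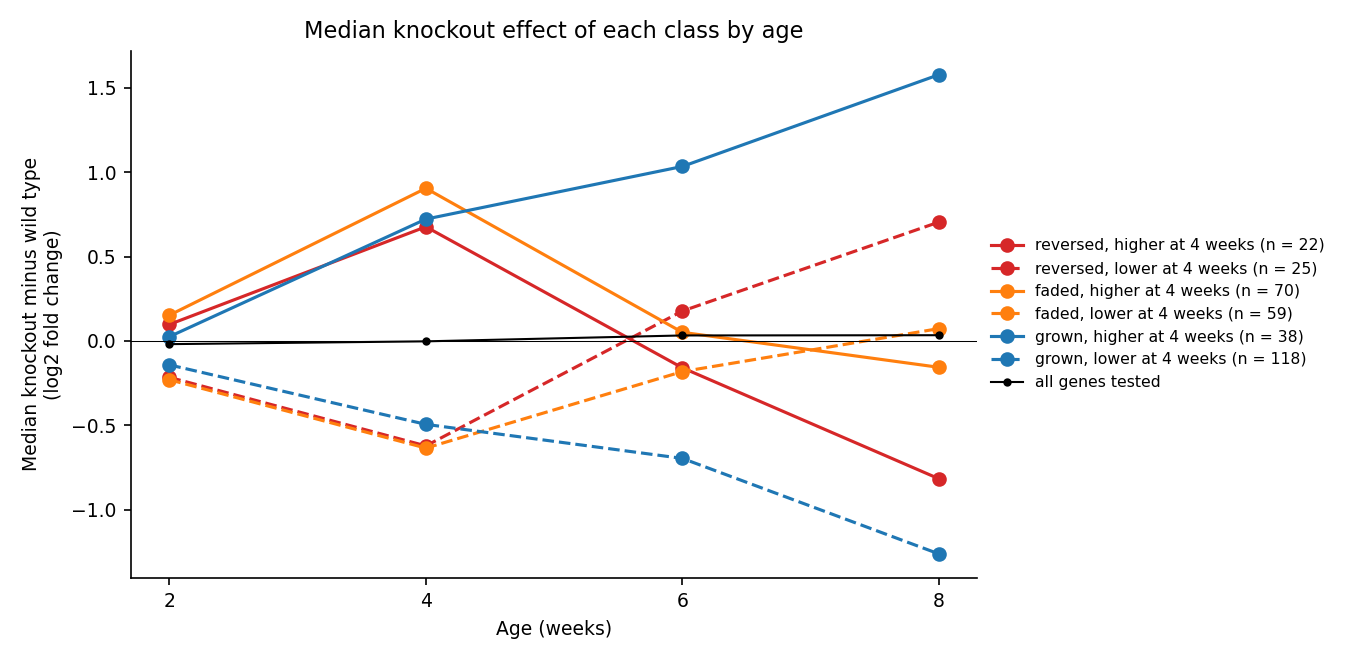
Lines give the median log2 fold change of SMNKO over WT at 2, 4, 6 and 8 weeks for the reversed, faded and grown genes, split by the 4-week direction, and the black line gives all genes tested. The reversed lines cross 0 between 4 and 6 weeks, the faded lines are farthest from 0 at 4 weeks, and the grown lines move away from 0 at each age.

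The grown genes that rose included Mt3, a zinc- and copper-binding metallothionein. It ran from 1.21 to 2.18 CPM in 4-week WT, and the SMNKO animals had 3.09, 9.78, 2.63, 4.50 and 3.03 CPM, all above WT. In 8-week WT animals the levels were 0.869, 0.616, 0.965, 0.225 and 0.724 CPM, and SMNKO ran from 9.85 through 13.5 to 20.8 CPM. Its effect went from 1.15 (SE 0.30) to 4.44 (SE 0.35). Atp1b4, a nuclear membrane protein of muscle that is highest around birth, stood at 39.2, 54.4, 55.6, 68.3 and 88.4 CPM in 4-week SMNKO against 20.1 to 38.7 CPM in WT. WT fell by 2.09 with age and SMNKO moved by -0.27 (adjusted p = 0.298), so the gap grew by 1.82 (SE 0.33). Ctss, cathepsin S, and Cd84, a leukocyte receptor, changed by 2.55 (SE 0.70) and 2.41 (SE 0.64). Macrophage markers summed to 189 to 324 CPM in 4-week WT and 197 to 743 CPM in 4-week SMNKO. They summed to 183 to 250 CPM in 8-week WT and 1200 to 2540 CPM in 8-week SMNKO. Of these markers 17 of 24 moved upward and 0 downward, against 13.5% and 13.8% of all genes tested.

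The grown genes that fell included Amy1, Maob and Rcan2, whose WT level rose with age. Amy1, salivary amylase, which has near-identical copies, ran from 4.91 to 8.96 CPM in 4-week WT and had 12.6, 20.6, 25.3, 17.8 and 22.3 CPM in 8-week WT. Its SMNKO animals had 2.40, 0.978, 2.06, 1.64 and 1.42 CPM at 4 weeks and 0.789 through 1.83 to 2.05 CPM at 8 weeks. Its effect went from -1.92 (SE 0.26) to -3.72 (SE 0.24). Maob, monoamine oxidase B, rose in WT by 1.71 and moved in SMNKO by 0.03 (adjusted p = 0.915), and Rcan2, a calcineurin regulator, rose in WT by 1.59 and moved in SMNKO by -0.21 (adjusted p = 0.395). The gaps of Maob and Rcan2 changed by -1.68 (SE 0.25) and -1.80 (SE 0.27). Myh13, the extraocular myosin, changed by -2.22 (SE 0.52).

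The 4 named emerged genes that rose included Myh8, Mymk and Myl4, which embryonic or regenerating fibres express. Myh8, the perinatal myosin, ran from 12.2 to 38.1 CPM in 4-week WT and had 14.6, 22.2, 27.7, 34.1 and 54.5 CPM in 4-week SMNKO. At 8 weeks the WT animals had 4.34, 7.70, 10.7, 5.24 and 4.28 CPM, and SMNKO ran from 125 through 293 to 805 CPM. Its effect went from 0.36 (adjusted p = 0.603) to 5.81 (SE 0.46). Mymk, myomaker, which drives myoblast fusion, changed by 5.78 (SE 0.77), Myl4, an embryonic myosin light chain, by 4.35 (SE 0.48), and Shisal1, a membrane protein, by 4.65 (SE 0.59).

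The emerged genes that fell need their libraries beside them. Lars2, mitochondrial leucyl-tRNA synthetase, changed by -8.96 (SE 3.07, adjusted p = 0.0304), Mir6236 by -7.69 (SE 2.67, adjusted p = 0.033) and Mir6240 by -7.69 (SE 2.01, adjusted p = 0.00542). Their counts ran high in rRNA-rich libraries. Lars2 stood at 471481 and 124036 CPM in 8-week WT animals 34 and 35, which held 20.3% and 23.1% of counts in rRNA genes, and at 2472 to 6530 CPM in the other 8-week WT animals. It stood at 138196 CPM in 4-week SMNKO animal 8, at 29.3% rRNA, and at 878 to 12113 CPM in the other 4. Without WT animal 34 the changes were -7.12, -5.86 and -3.60 and none was called. The calls of Lars2 and Mir6236 were also lost without SMNKO animal 8, 39 or 40, and that of Mir6236 without animal 41. Without all 5 rRNA-rich libraries the changes of Lars2, Mir6236 and Mir6240 were -6.39, -5.45 and -4.99, all called. With no filter, with only the 22 libraries, with sex as a term and in labelled males alone, Lars2 and Mir6236 were not called. Chac1, a glutathione-degrading enzyme of the stress response, changed by -3.76 (SE 0.88, adjusted p = 0.00221). Its 4-week SMNKO animals had 98.5, 9.46, 9.33, 8.13 and 14.9 CPM, with animal 7 alone above the WT range of 4.91 to 23.8 CPM. Without animal 7 its change was -2.12, still called.

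Across the remaining lists the change had 1 direction in several and was mixed in others. Over all genes tested 13.5% moved upward and 13.8% downward. The downward counts depend on the scaling: on library sizes alone 0 of the fatty acid, tricarboxylic acid cycle and complex I genes were called downward, and 5 slow-fibre and 8 Schwann cell genes were. Of 36 fatty acid uptake and oxidation genes, 3 moved upward and 24 downward, from a list median of 0.13 to -0.67, and of 25 tricarboxylic acid cycle genes 1 moved upward and 20 downward. Complex I had 0 upward and 18 downward of 36. Of 20 slow-fibre genes 0 moved upward and 13 downward. In WT 12 of them were called higher and 0 lower with age (list median 1.48), where 7.8% and 7.59% of all genes tested were. In SMNKO 1 was called higher and 3 lower with age (list median -0.09), where 23.1% and 21.5% of all genes tested were. Myh7, the slow myosin, went from 0.35 to -3.14. WT animal 36, low in Myh4, enters the 8-week WT side of that list. Schwann cell and nerve markers had 0 upward and 12 downward of 13. Their summed level ran from 419 to 699 CPM in 4-week WT, 342 to 1210 CPM in 4-week SMNKO, 147 to 643 CPM in 8-week WT and 72.1 to 165 CPM in 8-week SMNKO, so the 8-week groups overlapped. On the other side, 20 of 22 cell cycle genes and 18 of 24 developmental fibre genes moved upward and 0 of either downward. Of 24 interferon response genes 15 moved upward and 0 downward, and Ifih1, the RNA sensor MDA5, was the only reversed member, at -0.54 (SE 0.15) and 0.34 (SE 0.15). The integrated stress response list was mixed, with 9 of 29 upward and 5 downward.

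**Figure D5:**
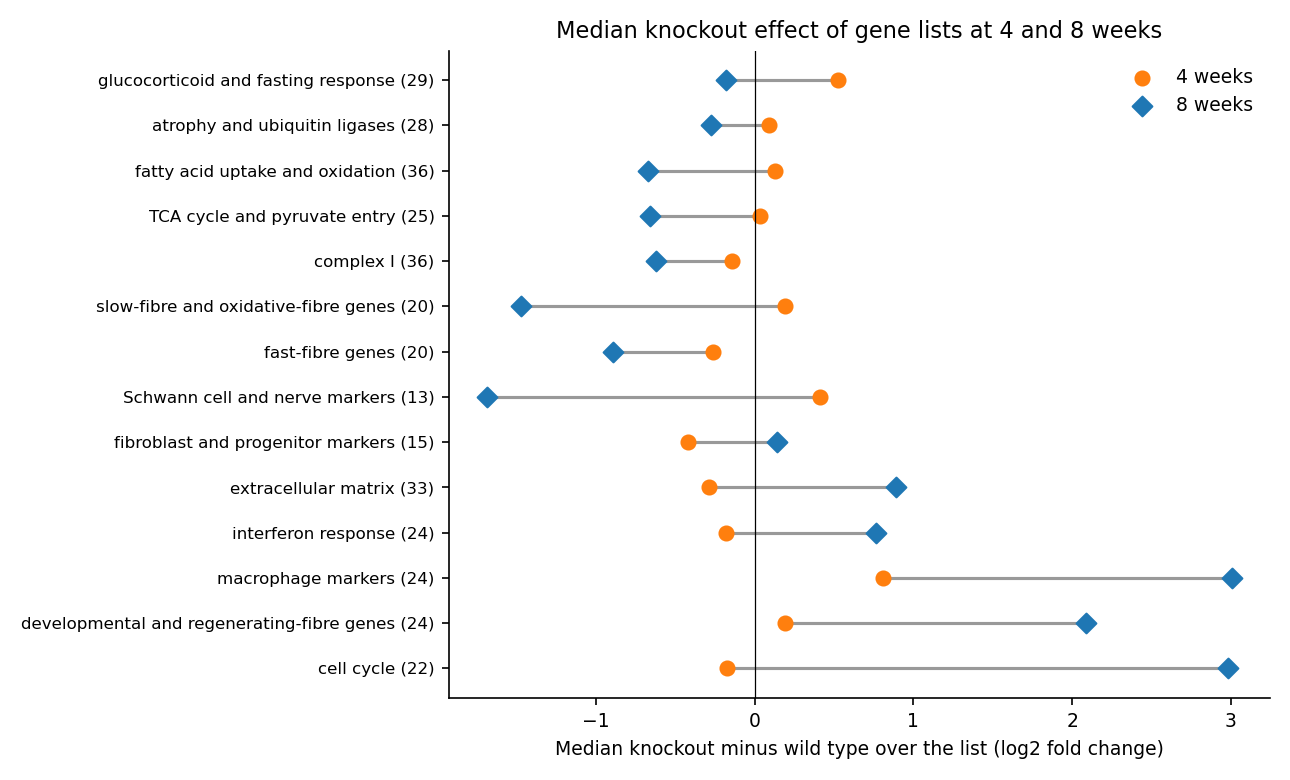
For 14 gene lists, with the number of tested genes in brackets, the orange circle gives the median log2 fold change of SMNKO over WT at 4 weeks and the blue diamond at 8 weeks. The glucocorticoid and fasting list passes from 0.53 to -0.18 and the extracellular matrix list from -0.29 to 0.89, while macrophage markers stay above 0 at both ages.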

How the data were processed

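Bulk RNA sequencing of rRNA-depleted, stranded libraries with 38-bp paired ends was done on gastrocnemius muscle, per the labels' protocols. The authors deposited 1 table of whole-number counts per Ensembl gene for 50686 genes. Per the submitters' processing notes, the tools were edgeR 3.22.0, featureCounts 1.5.2 and STAR 2.5.2b, with the mm10 build and no roles given; the annotation and strand setting of the counting are not given in the sources used here, so overlapping and near-identical genes are uncertain. Symbols and positions come from GENCODE vM21 (50462 identifiers matched).

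All 37 libraries entered 1 quasi-likelihood model (edgeR 4.0.16, R 4.3.3, robust; 8 groups plus pool; TMM; filterByExpr with a minimum count of 10 and total of 15), which left 16728 genes and 28 residual degrees of freedom. Filtered genes made up no more than 0.134% of a library. Contrasts were called at a Benjamini-Hochberg adjusted p below 0.05. CPM were computed from the deposited counts with TMM factors.

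Named genes were Nampt, Nmrk2 and those with the largest effects in each class: 6 each way in reversed (by the smaller of both effects), 8 each way in faded, 4 each way in grown and emerged, all averaging 1 or more in log2 CPM, without predicted, mitochondrial, rRNA and sex-linked genes and pseudogenes. Up to 4 members of each list described, by the smallest p of the change, were added; others were named after their values were seen. Members and the 39 gene lists were chosen with earlier results of these data known. The lists cover metabolism, stress, fibre programs, matrix and cell type markers. Alternatives were other scaling (RLE, library sizes alone), no filter, pool and sex settings, only the 22 libraries, DESeq2 1.42.0, and leaving out libraries. Some genes that the rule names are not reported here.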

Additional observations from a re-analysis of the deposited data

Results flagged for a closer look

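The knockout effect differed between 4 and 8 weeks for 4576 genes by the test of the difference itself (edgeR quasi-likelihood), which is the subject of the report. Among 180 combinations of a named gene and a group, 9 held a library whose gap to its nearest neighbour was too large a part of the group's range by Dixon's criterion, which marks about 1 in 20 groups by chance. SMNKO animal 7 accounted for 3 of them at 4 weeks: Ccn4 at 3.33 CPM against 8.19 to 11.3 CPM in the other animals, Chac1 at 98.5 CPM against 8.13 to 14.9 CPM, and Shisal1 at 0.588 CPM against 3.92 to 5.22 CPM. In 8-week SMNKO muscle, Cd84 was at 30.4 CPM in animal 39 against 15.4 to 18.4 CPM, and Sap30 was at 5.86 CPM in animal 42 against 8.2 to 9.32 CPM. Animal 43 of that group was highest in Klhl38, at 7.06 CPM against 4.18 to 4.8 CPM, and in Nampt, at 56.0 CPM against 46.5 to 49.0 CPM. In 8-week WT muscle, Lrrc2 was at 129 CPM in animal 36 against 66.5 to 79.7 CPM, and Myl4 was at 10.8 CPM in animal 35 against 5.65 to 6.55 CPM.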

How the results depend on the processing

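Counts below are genes called for the change (interaction), the knockout effect at 4 weeks, the age change in wild type, and in the classes of reversed genes, faded genes, grown genes and emerged genes, where they moved by over 1.5 times. The genes in a class can differ from those of the main fit. Library sizes alone gave 7393, 120, 878, 5, 21, 23 and 7140. Labelled males alone gave 2155, 17, 831, 0, 6, 2 and 2003. Only the 22 libraries gave 3003, 213, 1438, 6, 27 and 31, emerged genes not moving so far. Pool B alone gave 2899, 9, 1286, 1, 0 and 3. Pool A alone gave 1107 for the change, 214 for the WT age change, 2442 for the age change in knockout, 4286 for the knockout effect at 8 weeks, 30 grown and 810 emerged genes. Labelled sex as a term gave 97 at 4 weeks, 1435 for the WT age change and 1 reversed, 16 faded and 13 grown genes. No filter gave 562 at 4 weeks and 20, 64 and 69 reversed, faded and grown genes. Without the 5 rRNA-rich libraries 303 genes were called at 4 weeks, with 28 reversed, 69 faded and 36 grown. Leaving out WT animal 36 as well gave 527 at 4 weeks, 1701 for the WT age change and 68 grown genes. Without the 3 libraries whose sex-linked genes did not match the label 474 genes were called at 4 weeks and 46 had grown. DESeq2 gave 264 grown genes. Leaving out 1 library at a time gave 3781 to 5154 genes for the change, 345 to 1598 at 4 weeks, 7862 to 8992 at 8 weeks, 2025 to 2780 for the WT and 6517 to 8061 for the SMNKO age change, 2 to 82 reversed, 25 to 195 faded, 65 to 281 grown and 3487 to 4701 emerged genes. Of 45 named genes, 39 kept their call whichever library was left out and 15 kept it in every setting tried. Calls were lost for 19 in pool A alone, 17 in pool B alone, 9 in labelled males alone and 8 on library sizes alone. Mir6236 alone turned its sign in the settings tried, to 0.13 in pool B alone. The cause of these differences was not tested. No paired analysis was possible because each animal number belongs to 1 library and no number is shared between groups.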
